A study of Mus musculus with 6 samples.

Results

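Scmh1 and 9 other Polycomb group genes (Phc1, Phc2, Phc3, Bmi1, Cbx2, Ring1, Rnf2, Ezh1 and Ezh2) were followed across 6 RNA-seq libraries of mouse leukaemia cells. They are 10 of the 27179 genes in the deposited count table. The set was chosen by the CPM values of Scmh1, which separated the treatment groups most clearly, so the levels of Scmh1 under treatment are given as a description and support nothing by themselves. The other genes were taken as members of the same chromatin complexes. All 6 libraries come from the line A/E9a;NRASG12D;Ifnar1-/- in the C57BL/6 strain, which combines the A/E9a form of the AML1-ETO fusion, an activated NRAS and a knockout of the type I interferon receptor chain Ifnar1. Controls and treated cells share all of these changes, and 1 line stands for the leukaemia. The vehicle group (3 libraries) and the panobinostat group (3 libraries) were treated for 3 days, after which live GFP+ cells were sorted from the spleen. Panobinostat is a histone deacetylase inhibitor, and the comparison asks how the transcripts of these cells differ with the drug. Nothing ties the libraries to individual animals, and p-values here reflect library-to-library spread alone, which may be technical.

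Polycomb proteins keep developmental and cell cycle genes silent by marking their chromatin. Polycomb repressive complex PRC2 methylates histone H3 at lysine K27 through its catalytic subunit, EZH2 or EZH1, and PRC1 ubiquitinates histone H2A through RING1 or RNF2 (RING1B). In canonical PRC1 the ligase is joined by a PCGF protein such as BMI1, a CBX protein that reads the PRC2 mark, and a Polyhomeotic protein (PHC1, PHC2 or PHC3) that polymerises through its SAM domain. SCMH1 is a mammalian homologue of Sex comb on midleg, an accessory protein of PRC1. In blood, BMI1 sustains stem cells and leukaemic self-renewal, and EZH2 is known for high levels in dividing cells.

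Scmh1 lies on chromosome 4, and the RefSeq promoter table of GRCm38.p6 gives it a pair of start sites on the plus strand. Sequence upstream of each is shown because the counts are per gene and cannot say which start gave the reads, and the starts differ in CpG content. Capitals mark CpG dinucleotides. The first run is chr4:120405098-120405149, the part of that table's window that precedes the first base of the RefSeq gene. The rest of the window, up to 120405347, lies within the annotated gene and is not printed, so the run does not reach the listed start. The second is chr4:120453143-120453242, which lies within the gene. It is part of that table's window for the internal start, which ends at 120453243.
Scmh1 first start: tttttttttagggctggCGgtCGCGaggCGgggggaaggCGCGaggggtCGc
Scmh1 internal start: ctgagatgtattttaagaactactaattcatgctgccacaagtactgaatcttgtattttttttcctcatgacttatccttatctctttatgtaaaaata
The first run holds 7 CpG in 52 bases and the second 0 CpG in 100 bases. Over the whole window of 250 bases before the start, the first Scmh1 site had 45 CpG, a number reached by 0.409% of the 32544 promoters in the table, and the internal site had 0. Promoters were listed for 9 of the 10 members (12 windows in all), with a median of 17.0 CpG against 6.0 over all promoters. The letters GGGCGG, the GC box, were found on either strand in 7 of these 12 windows (58.3%), against 33.0% of all promoters. A match is a description of the letters and not a bound site.

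Library totals ran from 31989622 to 35962605 counts. A count of 0 allows up to 3 counts, or 0.0834 to 0.0948 CPM (read counts scaled to library size, with TMM factors), and this limit covers counting error only. Vehicle library 1 stood apart from its group: on the first principal component of log2 CPM, 50.7% of the variance, it had a value of -53.7, against 54.3 and 56.4 for vehicle libraries 2 and 3 and -25.3 to -15.0 for the panobinostat group. Panobinostat library 1 was the outlying one on component 2 (27.6%), at 64.9, with the others between -26.7 and -0.935. Results that rest on these libraries are given with and without them. Of the marker lists by cell type, the summed level of 10 mast cell and basophil genes was 833 to 898 CPM with vehicle and 968 to 2432 CPM with panobinostat, highest in panobinostat library 1. The 14 B cell genes summed to 58.1 to 127 CPM and 10.2 to 69.9 CPM, and the 12 T cell genes to 15.4 to 18.6 and 10.7 to 16.1 CPM. In panobinostat library 1, Cd247 gave 10.1 of the 11.1 CPM of the T cell sum. No other gene of the T cell list was above 0.222 CPM there. The 11 megakaryocyte genes summed to 298 to 529 CPM, highest in vehicle library 1, and to 291 to 457 CPM. The 11 erythroid genes found of 13 listed summed to 8198 to 23927 and 2915 to 23199 CPM, and the 15 granulocyte and monocyte genes to 10.7 to 13.9 and 6.89 to 8.84 CPM. No marker in these lists was at 0 in every library. Fewer cells of a type and less RNA per cell cannot be told apart in such bulk libraries.

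Scmh1 was low in every vehicle library and higher in every panobinostat library. Its level was 0.948, 1.23 and 0.725 CPM across vehicle libraries 1, 2 and 3, from 30, 43 and 25 reads. In panobinostat libraries 1, 2 and 3 it was 9.70, 4.97 and 6.02 CPM, from 349, 177 and 203 reads. The groups did not overlap, which held in this direction for 3.79% of all tested genes, and panobinostat library 1 was the highest. The highest vehicle value had an exact 95% Poisson interval of 0.893 to 1.66 CPM and the lowest panobinostat value one of 4.27 to 5.76 CPM, both covering counting error only. The group means were 0.969 ± 0.255 and 6.90 ± 2.48 CPM (SD, n = 3), a 7.12-fold ratio of means, and the fitted log2 fold change was 2.83 (SE 0.373).

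Vehicle library 1, which lay on the panobinostat side of the first component, held Scmh1 at 0.948 CPM, between the other vehicle libraries. Panobinostat library 1, the outlying library of component 2, held the highest Scmh1 level, 9.70 CPM. The ratio of means was 7.04 without vehicle library 1, 5.67 without panobinostat library 1 and 5.61 without both. The choice of Scmh1 by its group separation bears on these ratios too, which are given as a description. The summed mast cell and basophil level did not overlap between the groups either. It was 833, 898 and 863 CPM across vehicle libraries 1, 2 and 3, against 2432, 980 and 968 CPM for panobinostat libraries 1, 2 and 3. Panobinostat library 1 was highest in both this sum and Scmh1. It was also highest for each gene of the list except Fcer1a (27.4 CPM there, 60.8 CPM in vehicle library 1). No gene of the list separated the groups by itself. Ms4a2 stood at 239, 317 and 372 CPM with vehicle and at 695, 333 and 292 CPM with panobinostat. Hdc, the highest of these genes, overlapped narrowly, with 552.927 CPM in vehicle library 2 and 552.865 CPM in panobinostat library 2. The summed granulocyte and monocyte level was lower in every panobinostat library. Which cells these marker transcripts came from, and the part of such cells in the Scmh1 values, were not tested.

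**Figure D1:**
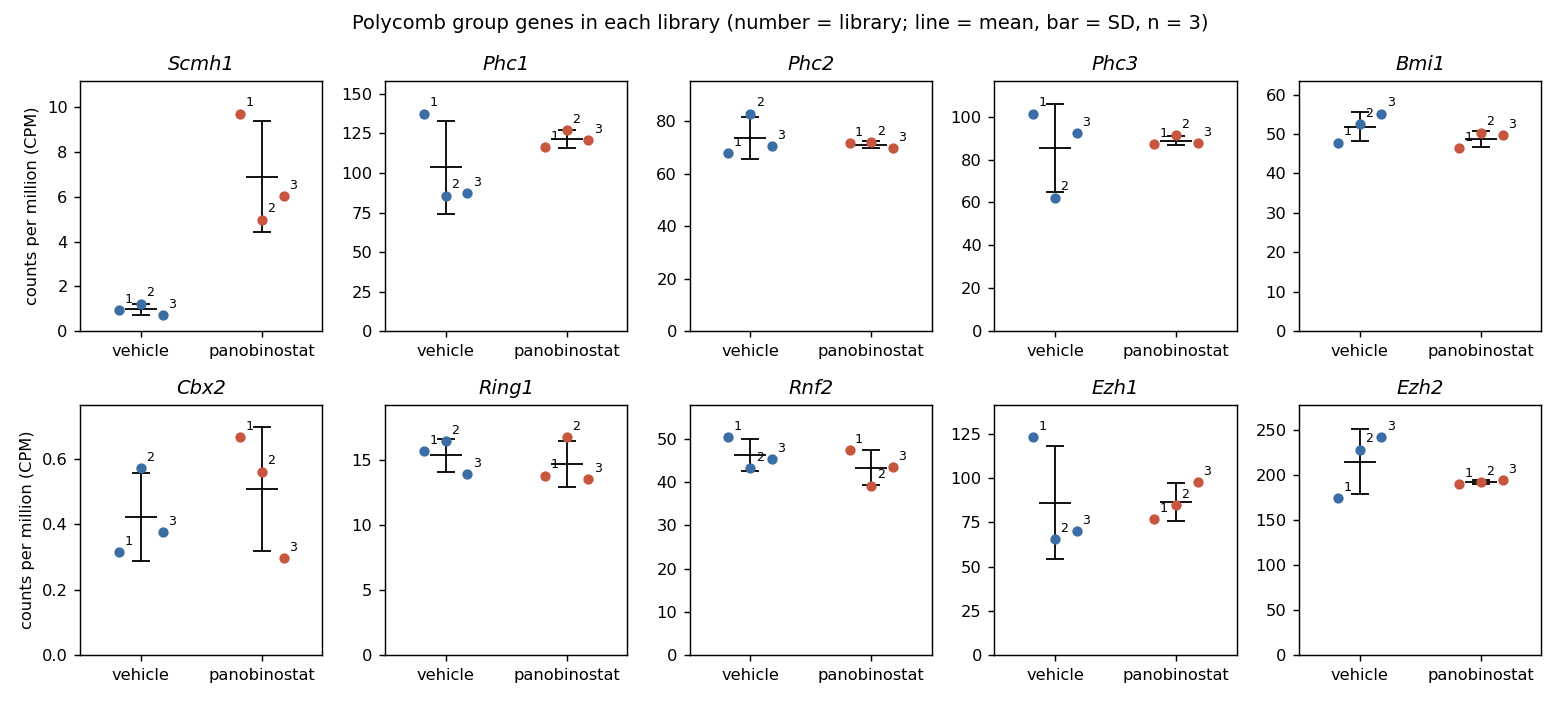
Each panel plots 1 gene in CPM (vertical axis from 0) for the 3 vehicle and 3 panobinostat libraries, with each library's number, the group mean as a line and the SD as a bar. Scmh1 separates the groups, at 0.725 to 1.23 CPM against 4.97 to 9.70 CPM, while the groups of the other 9 genes overlap.

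Genes with a profile close to that of Scmh1 were sought among the 10887 other tested genes with a mean log2 CPM of at least 1. The measure was the root mean square distance between log2 CPM profiles, each centred on its own mean over the 6 libraries. The 5 nearest were Grhl1 (distance 0.69 on the log2 scale), Igfbp4 (0.70), Gbp2 (0.70), Kcnj5 (0.72) and Plekha8 (0.72), where the median gene lay at 1.42. Being near Scmh1 selects genes that separate the groups, so their separation is no further result.

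Grhl1, a grainyhead-like transcription factor, stood at 2.02, 1.69 and 1.10 CPM across vehicle libraries 1, 2 and 3, against 18.4, 2.84 and 4.24 CPM for panobinostat libraries 1, 2 and 3. Igfbp4, a binding protein of insulin-like growth factors, stood at 2.56, 0.889 and 0.609 CPM and then 13.1, 3.88 and 3.71 CPM. Like Scmh1, all 5 nearest genes were highest in panobinostat library 1, and all except Kcnj5 were lowest in vehicle library 3. Gbp2, an interferon-inducible GTPase, was 3.38, 2.09 and 1.02 CPM with vehicle and 6.70, 6.38 and 6.14 CPM with panobinostat. Kcnj5, a potassium channel, was nearly level within vehicle at 10.6, 9.61 and 9.69 CPM and stood at 33.7, 32.6 and 20.6 CPM with panobinostat. Plekha8, a lipid transfer protein of the Golgi, varied most within vehicle, at 2.69, 8.43 and 1.65 CPM, and stood at 13.5, 10.6 and 9.81 CPM with panobinostat.

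No other Polycomb member was among these genes. Of the 8 with a mean log2 CPM of at least 1, Phc1 was the nearest, at distance 1.31 and rank 1421 of 10887, and Ezh2 the farthest, at 1.49 and rank 8809. Cbx2 was below that mean and lay at 1.31.

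**Figure D2:**
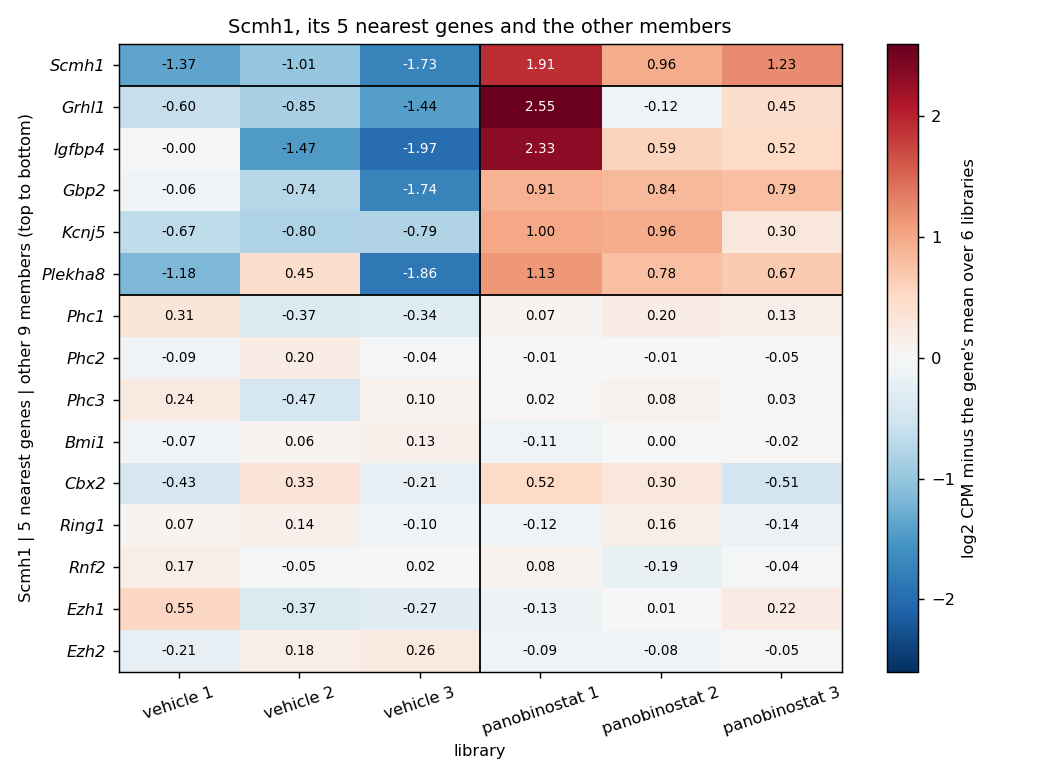
Each cell gives 1 gene's log2 CPM in 1 library minus that gene's mean over the 6 libraries, for Scmh1, its 5 nearest genes and the other 9 members. Scmh1 runs from -1.73 to 1.91, while the other members lie between -0.51 and 0.55.

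Among the other 9 members, all 9 passed the filter on low counts in both groups, and edgeR's quasi-likelihood test called 0 higher and 0 lower at an adjusted p of 0.05, with adjusted p from 0.998 to 0.999. The background was the same: 0.0% of the 13207 tested genes were called. At an unadjusted p of 0.05, 0 of the 9 members and 2.28% of all genes passed. DESeq2, which called 0.0681% of all genes, and limma-voom also called 0 of the 9. Their estimates were higher for 4 and lower for 5, with a median log2 fold change of -0.05 against 0.00 over all tested genes. Groups did not overlap for 0 of the 9, against 7.43% of all tested genes.

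The Polyhomeotic genes, whose products link PRC1 particles, were all expressed. Phc1 stood at 138, 85.7 and 87.4 CPM across vehicle libraries 1, 2 and 3, against 116, 127 and 121 CPM for panobinostat libraries 1, 2 and 3. Vehicle library 1 was the highest of all 6 and the other vehicle libraries were the lowest. The log2 fold change was 0.23 (SE 0.199), and 0.48 (SE 0.0871) without vehicle library 1, with an edgeR adjusted p of 0.0600. Without both libraries numbered 1 it was 0.51 (SE 0.0807), called higher with an edgeR adjusted p of 0.0131, in a setting where 7.36% of all genes were called higher.

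Phc2 was the steadiest of these genes in the panobinostat group, at 71.5, 71.9 and 69.7 CPM, and stood at 67.9, 82.8 and 70.5 CPM in vehicle libraries. Its log2 fold change was -0.05 (SE 0.106), and 0.04 without vehicle library 2, the highest library. Phc3 stood at 101, 62.3 and 92.3 CPM with vehicle and at 87.3, 91.3 and 87.6 CPM with panobinostat. All 3 panobinostat values lay between vehicle libraries 2 and 3, so the difference of group means was smaller than the spread within vehicle (log2 fold change 0.06, SE 0.185). It turned to -0.12 without vehicle library 2, the lowest library.

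Bmi1, the PCGF subunit, varied little. It stood at 47.8, 52.5 and 55.2 CPM with vehicle and at 46.5, 50.3 and 49.6 CPM with panobinostat, with a log2 fold change of -0.09 (SE 0.0969). The range over all 6 libraries was 1.19-fold. Cbx2, a chromobox reader of the PRC2 mark, was near the floor, with 10 to 24 reads per library. Its level was 0.316, 0.574 and 0.377 CPM with vehicle and 0.667, 0.562 and 0.297 CPM with panobinostat. The groups overlapped, and no difference was detectable at this depth (log2 fold change 0.27, SE 0.472).

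The pair of H2A ligases moved little. Ring1 stood at 15.7, 16.5 and 14.0 CPM with vehicle and at 13.8, 16.8 and 13.6 CPM with panobinostat (log2 fold change -0.06, SE 0.150). Rnf2 stood at 50.4, 43.2 and 45.2 CPM and then 47.4, 39.2 and 43.4 CPM (log2 fold change -0.09, SE 0.114). Rnf2 shares 158 exonic bases with Trmt1l on the opposite strand, and since the strand setting is not given in the sources used here, reads there may come from either gene.

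The catalytic subunits of PRC2 differed in how the vehicle libraries spread. Ezh2 stood at 174, 228 and 242 CPM across vehicle libraries 1, 2 and 3, against 189.5, 191.5 and 194.5 CPM with panobinostat. The panobinostat values fell between vehicle library 1, the lowest of all, and vehicle library 2. The log2 fold change was -0.16 (SE 0.140), and -0.30 (SE 0.0843) without vehicle library 1, with an edgeR adjusted p of 0.129. Ezh2 shares 174 exonic bases with the antisense gene Gm26625, which leaves the same uncertainty as for Rnf2.

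Ezh1, the paralogue found more in resting cells, ran the other way in vehicle library 1. It stood at 123, 65.3 and 69.8 CPM across vehicle libraries 1, 2 and 3, against 76.7, 84.6 and 97.8 CPM with panobinostat. Vehicle library 1 was again the extreme, now the highest. Across all libraries the log2 fold change was 0.01 (SE 0.263). It was 0.34 (SE 0.127) without vehicle library 1, with an edgeR adjusted p of 0.214, and 0.42 (SE 0.102) without both libraries numbered 1, called higher with an adjusted p of 0.0473, where 7.36% of all genes were called higher.

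Per kilobase of exon, Ezh1 made up 38.8, 20.5 and 20.6% of the summed Ezh1 and Ezh2 level in vehicle libraries 1, 2 and 3 and 26.7, 28.4 and 31.1% in panobinostat libraries. The group means, 26.6 ± 10.6% and 28.7 ± 2.23% (SD, n = 3), differed by less than the vehicle spread. Genes of DNA replication and mitosis ran with Ezh2 in vehicle library 1. The summed level of 19 proliferation genes was 5235 CPM in vehicle library 1, 7093 and 7348 CPM in vehicle libraries 2 and 3, and 5508, 7131 and 6457 CPM for panobinostat libraries 1, 2 and 3. Panobinostat library 1, second lowest in these genes, held Ezh2 at the level of the other panobinostat libraries. Of these 19 genes, edgeR called 0, as it did of all 13207 tested genes. Estimates were lower for 16 and higher for 3, with a median log2 fold change of -0.05 against 0.00 over all tested genes. Mki67, a marker of dividing cells, stood at 1727 ± 282 and 1715 ± 287 CPM (SD, n = 3), and Top2a, the topoisomerase of dividing cells, at 725 ± 159 and 661 ± 49.2 CPM. The part of proliferation in the Ezh1 and Ezh2 values was not tested.

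Levels of different genes were compared as CPM per kilobase of the joined GENCODE M21 exons. Ezh2 was the highest member, at 32.1 ± 5.36 with vehicle and 28.7 ± 0.373 with panobinostat (SD, n = 3), followed by Phc1 at 19.5 ± 5.56 and 22.9 ± 1.04. In vehicle library 1 these 2 genes were level, at 26.1 and 26.0. Bmi1 (13.0 ± 0.936 in vehicle), Ezh1 (11.6 ± 4.32), Rnf2 (11.2 ± 0.890) and Phc2 (10.4 ± 1.13) came next, and neighbours in this order did not differ beyond their spread. Phc3 (4.88 ± 1.17) and Ring1 (4.74 ± 0.397) were alike. Scmh1, at 0.125 ± 0.0330 with vehicle and 0.892 ± 0.321 in panobinostat libraries, and Cbx2, at 0.0992 ± 0.0316 and 0.119 ± 0.0449, were the lowest. Scmh1 with panobinostat was thus still below every other member except Cbx2. With the length of the longest coding transcript in place of joined exons, the order within the middle 4 genes changed and the other ranks did not.

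Within the ligase pair, Ring1 made up 28.4, 32.6 and 28.2% of the summed level per kilobase in vehicle libraries and 27.1, 35.2 and 28.4% in panobinostat libraries. Among the Polyhomeotic genes, the Phc1 share was 62.8, 51.4 and 51.9% with vehicle and 59.2, 60.9 and 60.5% in panobinostat libraries. Vehicle libraries 2 and 3 were the low ones, and vehicle library 1 stood above the panobinostat range. The Phc3 share was 14.0, 11.3 and 16.6% with vehicle and 13.5, 13.2 and 13.3% in panobinostat libraries.

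**Figure D3:**
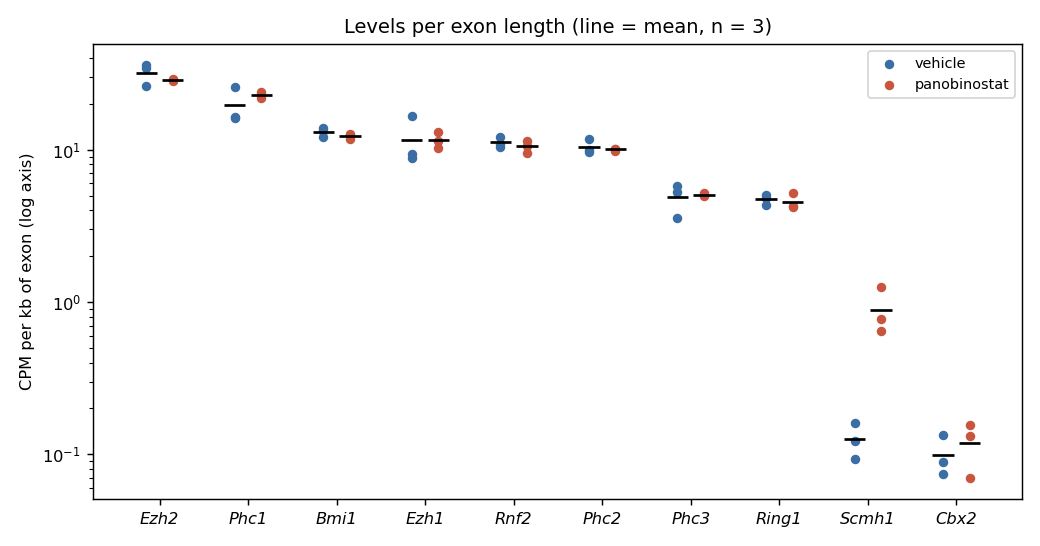
The vertical log axis gives CPM per kilobase of exon for each member, with 1 point per library and the mean of each group (n = 3) as a line, blue for vehicle and red for panobinostat. Ezh2 and Phc1 lead in both groups, and Scmh1 and Cbx2 lie lowest.

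Leaving out vehicle library 1 pulled apart the groups of 4 of the 9 other members. Phc1 and Ezh1 were then higher and Bmi1 and Ezh2 lower in all panobinostat libraries than in the remaining vehicle libraries. This was 44.4% of the members in a setting where the groups of 40.9% of all tested genes did not overlap (20.9% higher and 20.0% lower), so the share was near the background. Of the 9, 0 were called in that setting, where 2.42% of all genes were called.

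**Figure D4:**
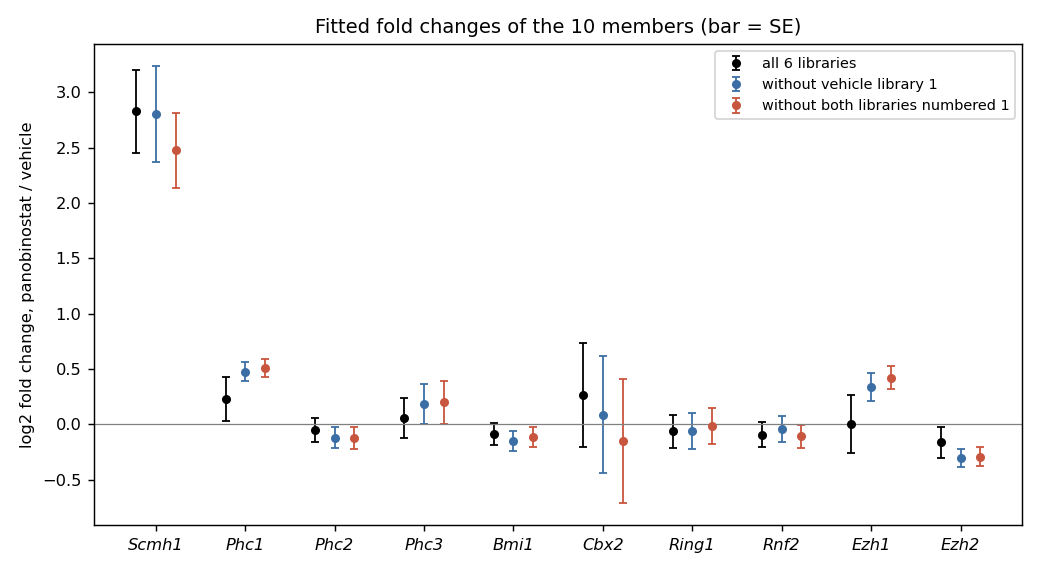
Points give the fitted log2 fold change of each member (panobinostat over vehicle) and bars its SE, with all 6 libraries, without vehicle library 1 and without both libraries numbered 1. Scmh1 stays between 2.48 and 2.83, and Phc1 and Ezh1 move up when vehicle library 1 is left out.

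Other genes of the Polycomb system were taken from a list by role, and 50 of its 88 genes passed the filter on low counts. EdgeR's quasi-likelihood test called 0 of the 50 higher and 0 lower, as it did for all genes, and 1 had an unadjusted p under 0.05. DESeq2 and limma-voom called 0 of them. Estimates were higher for 26 and lower for 24, with a median log2 fold change of 0.03 against 0.00 over all tested genes. Groups did not overlap for 5 of the 50 (3 higher and 2 lower with panobinostat), where the background was 7.43% of all tested genes (3.79% higher and 3.63% lower).

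Of the other canonical PRC1 genes, 7 of 9 were tested, with 4 estimates higher and 3 lower. Pcgf2 (Mel-18), the closest relative of Bmi1, stood at 3.82, 0.430 and 0.435 CPM across vehicle libraries 1, 2 and 3, against 2.84, 3.43 and 3.14 CPM with panobinostat. Vehicle library 1 was the highest of all and the other vehicle libraries were the lowest. Its log2 fold change was 1.01 (SE 0.883), and 2.84 (SE 0.313) without vehicle library 1, called higher with an edgeR adjusted p of 0.0268, where 2.0% of all genes were called higher. Cbx6, a chromobox protein, stood at 64.7 ± 6.81 and 78.9 ± 13.0 CPM (SD, n = 3). Scml2 and Scml4, relatives of Scmh1 named for the same fly protein, were picked here after their values were seen. Scml2 was untested with at most 0.0562 CPM, below the floor. Scml4 stood at 0.853, 0.373 and 0.290 CPM with vehicle and 0.0556, 0.169 and 0.712 CPM with panobinostat. These came from 27, 13 and 10 and then 2, 6 and 24 reads, and the groups overlapped (log2 fold change -0.69, SE 0.917).

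In variant PRC1, where RYBP or YAF2 takes the place of the CBX and Polyhomeotic proteins, 13 of 14 genes were tested, with 6 estimates higher and 7 lower. E2f6, a repressor of the E2F family, stood at 33.9, 37.2 and 28.9 CPM with vehicle and 64.7, 39.5 and 38.4 CPM with panobinostat. The groups did not overlap, although panobinostat libraries 2 and 3 were close to vehicle library 2. Pcgf1, the subunit of the BCOR and KDM2B complex, lay on the other side, at 12.1, 9.81 and 9.28 CPM with vehicle and 8.28, 7.36 and 9.22 CPM with panobinostat. Pcgf5 was also lower in each panobinostat library, at 11.7, 12.8 and 12.4 CPM and then 8.70, 11.2 and 11.2 CPM. Their log2 fold changes were 0.51 (SE 0.231), -0.33 (SE 0.183) and -0.25 (SE 0.162), none past the adjusted threshold in edgeR.

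Other PRC2 genes were 10 tested of 12, with 6 estimates higher and 4 lower, and their log2 fold changes ran only from -0.21 to 0.21. Rbbp4, a histone chaperone subunit, stood at 378 ± 52.9 and 328 ± 17.5 CPM (SD, n = 3). Mtf2, which guides PRC2 to CpG-rich DNA, stood at 94.9 ± 11.2 and 86.6 ± 0.448 CPM, and Jarid2, an accessory subunit, at 72.5 ± 10.6 and 79.0 ± 1.39 CPM. As for Ezh2, the panobinostat libraries lay within the vehicle range in all 3 genes except that panobinostat library 1 held Rbbp4 below it, at 308 CPM against 318 CPM in vehicle library 1.

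The PR-DUB complex, which removes the PRC1 mark from H2A, had 9 of 9 genes tested, 5 higher and 4 lower. Asxl1, the partner of the BAP1 enzyme and a gene often mutated in myeloid disease, stood at 166, 149 and 166 CPM with vehicle and 178, 171 and 176 CPM with panobinostat. Its groups did not overlap, but the log2 fold change was only 0.13 (SE 0.0908). Bap1 stood at 117 ± 9.29 and 108 ± 11.2 CPM and Asxl2 at 159 ± 21.4 and 184 ± 47.3 CPM (SD, n = 3). The H3K27 demethylases also overlapped, Kdm6a at 172 ± 67.4 and 166 ± 56.4 CPM and Kdm6b at 142 ± 20.2 and 153 ± 24.9 CPM.

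Among well-known Polycomb targets, the cell cycle inhibitors Cdkn2a, Cdkn2b and Cdkn1c were highest in vehicle library 1. Cdkn2a, which encodes p16 and ARF, stood at 22.6, 4.22 and 3.97 CPM across vehicle libraries 1, 2 and 3, against 6.00, 10.2 and 10.3 CPM with panobinostat. Cdkn2b (p15) stood at 4.68, 0.402 and 0.464 CPM and then 0.917, 1.07 and 1.90 CPM. Cdkn1c (p57) stood at 4.68, 0.717 and 1.25 CPM and then 1.56, 3.26 and 3.86 CPM. For all 3 genes the other vehicle libraries were the lowest, as for Pcgf2. Across all libraries the log2 fold changes were -0.22 (SE 0.721) for Cdkn2a, -0.51 (SE 0.997) for Cdkn2b and 0.39 (SE 0.746) for Cdkn1c. None passed the adjusted threshold in edgeR, nor did any without vehicle library 1 alone. Without both libraries numbered 1, and so without the highest vehicle library, Cdkn2a and Cdkn1c were called higher. Their log2 fold changes were then 1.31 (SE 0.176) and 1.84 (SE 0.372), with edgeR adjusted p of 0.00758 and 0.0278. In that setting 7.36% of all genes were called higher.

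Most Hox genes, which set segment identity and are classic Polycomb targets, were at or near the floor. Of 39, 33 were not tested, none of them above 0.178 CPM, and 32 had at most 3 reads in every library. All 11 Hoxa genes and all 9 Hoxd genes stayed at 2 reads or fewer. The 6 tested genes were Hoxb13 and 5 of the Hoxc cluster. Hoxc8 was the 1 gene of the list with an unadjusted p under 0.05, at 0.126, 0.172 and 0.319 CPM with vehicle and 0.473, 1.10 and 1.10 CPM with panobinostat, from 4, 6 and 11 and then 17, 39 and 37 reads. Its groups did not overlap, with a log2 fold change of 2.09 (SE 0.555) and an edgeR adjusted p of 0.998. Without both libraries numbered 1 it was 2.13 (SE 0.504), called higher with an edgeR adjusted p of 0.0450, where 7.36% of all genes were called higher.

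Hoxc4 and Hoxc5, named here after their values were seen, were the most abundant Hox genes. Hoxc4 stood at 8.50, 70.3 and 74.4 CPM across vehicle libraries 1, 2 and 3, against 63.2, 34.2 and 36.8 CPM with panobinostat. Hoxc5 stood at 4.45, 57.3 and 61.9 CPM and then 56.6, 13.7 and 13.5 CPM. In both genes vehicle library 1 was the lowest and panobinostat library 1 lay near vehicle libraries 2 and 3. Across all libraries the log2 fold changes of Hoxc4 and Hoxc5 were -0.19 (SE 0.734) and -0.56 (SE 0.992), each with an edgeR adjusted p of 0.998. Without both libraries numbered 1, the ones that ran against the others of their groups, the 2 genes were called lower. They were then at -1.04 (SE 0.0959) and -2.14 (SE 0.107) on the log2 scale, with edgeR adjusted p of 0.00281 and 0.000529. In that setting 4.65% of all genes were called lower. Hoxc9 stood at 2.33 ± 0.990 and 4.14 ± 1.20 CPM and Hoxb13 at 3.28 ± 1.68 and 2.13 ± 1.68 CPM (SD, n = 3).

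**Figure D5:**
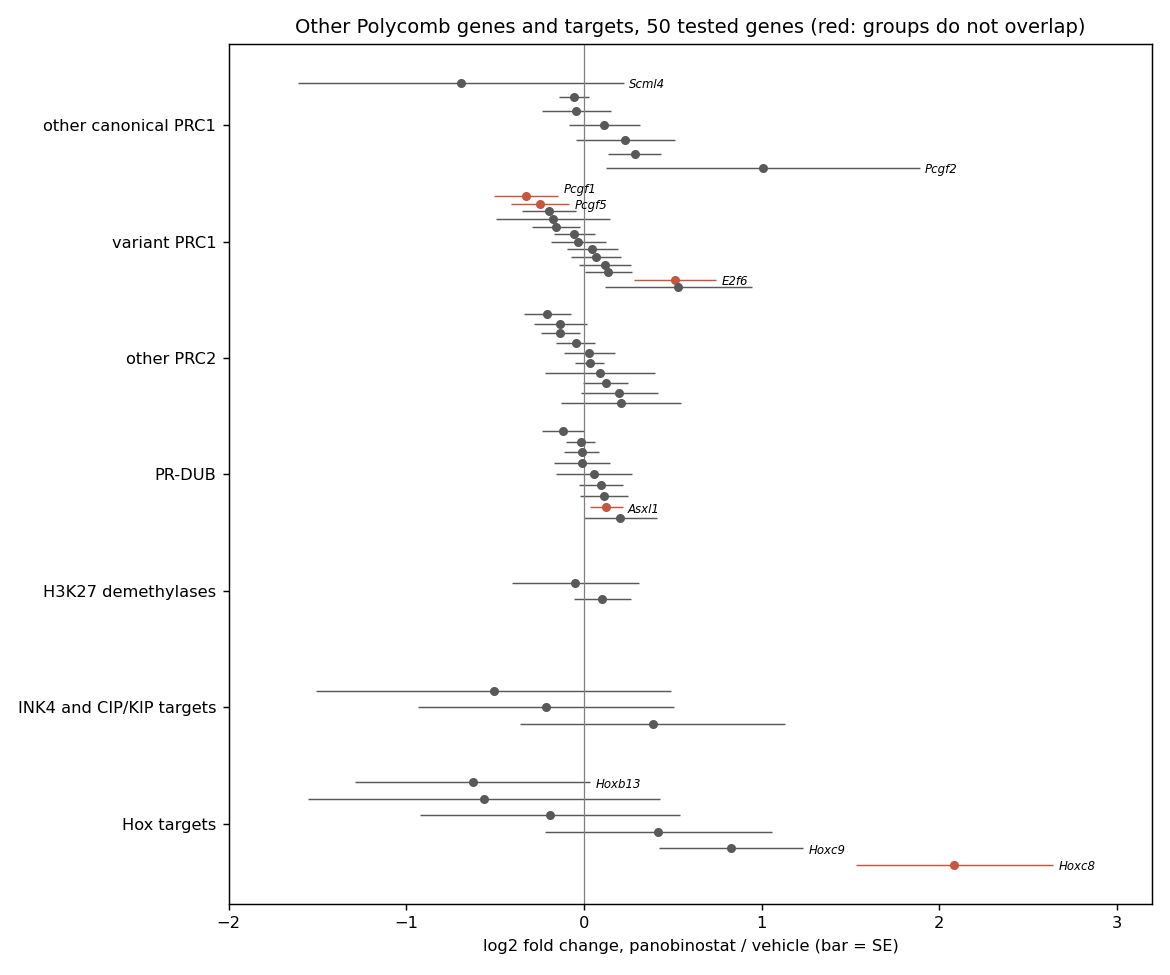
Each point is the log2 fold change (panobinostat over vehicle, horizontal axis) of 1 of the 50 tested genes outside the 10 members, by role, with its SE as a bar. Red points mark the 5 genes whose groups did not overlap, and the largest values belong to genes of low level such as Hoxc8 and Pcgf2.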

How the data were processed

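RNA-seq read counts were used for 6 libraries. The authors deposited whole-number counts per Entrez gene, which appear to be unnormalized. The build was mm10 and the tools named were HISAT2 2.1.0, Subread 2.0.0 with featureCounts, cutadapt 2.1, limma, FastQC 0.11.6 and bcl2fastq 2.17.1.14, per the submitters' processing notes. The annotation is not given in the sources used here, nor is the strand setting. Column names give group and number, and libraries are named by these. The number is not tied to the labels' replicate numbers.

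Of 27179 identifiers, 25275 matched a RefSeq symbol (GRCm38.p6). Genes passing filterByExpr (minimum count 10) were scaled by TMM and tested in edgeR 4.0.16 (R 4.3.3) by the robust quasi-likelihood F-test, two-sided, with Benjamini-Hochberg adjustment over 13207 genes and a threshold of 0.05. The SE is the log2 fold change divided by the square root of F. Log2 CPM used a prior count of 2. Library totals were 31989622 to 35962605. In simulated counts for this comparison, 200 genes were given a change, and 13014 genes passed the filter. Changed genes lost to the filter are left out of the following numbers. The test found 29 of the 98 tested genes given a 2-fold change. It found 69 of the 93 tested genes given a 4-fold change, and made 4 false calls. In the real libraries the same test called 0 of 13207 genes. Scmh1, with a 7.12-fold ratio of means, had an edgeR adjusted p of 0.998 there. The simulated shares therefore cannot be taken as the power behind the results with 0 called genes.

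The members and lists were chosen with earlier results of these data known. Named genes were the members, up to 3 genes per role with the smallest p, Mki67, Top2a and the 5 genes nearest Scmh1, except for a gene that is not reported here. Scml2, Scml4, Hoxc4, Hoxc5 and Bcorl1 were added after their values were seen. Alternatives were RLE, upper-quartile or no scaling factors, the tools DESeq2 1.42.0 and limma-voom (limma 3.58.1), an unfiltered table, genes averaging 1 CPM or more, no robust option, the replicate block, and fits without each library or without both numbered 1.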

Additional observations from a re-analysis of the deposited data

How the results depend on the processing

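The Scmh1 log2 fold change stayed between 2.48 and 3.04 in all 16 alternatives. The count of called genes over all genes varied with the libraries fitted: 0 in the main setting, 0 to 324 with 1 library left out (324 without vehicle library 1), 9 with DESeq2 and 1590 without both libraries numbered 1. DESeq2 and the fit without vehicle library 1 each called Scmh1 and 0 other members, and Scmh1 was chosen on this contrast, so those calls support nothing. Without both libraries numbered 1, 2 of the other 9 members were called higher (Phc1 and Ezh1), where 7.36% of all genes were called higher. In each fit with 1 library left out, 0 of the 9 were called. Of the wider list, 0 to 2 genes were called with 1 library left out. The 2 were Pcgf2 and Bcorl1 without vehicle library 1, where 2.42% of all genes were called. Without both libraries numbered 1, 9 were called (6 higher and 3 lower), where 7.36% of all genes were called higher and 4.65% lower. Ezh1 changed sign in 7 alternatives, at -0.0010 with RLE factors, -0.0067 with library size alone, -0.0054 with a mean of at least 1 CPM, -0.0010 with DESeq2, and -0.16 to 0.34 with 1 library left out. Phc2 ran from -0.12 to 0.041 and Phc3 from -0.12 to 0.19 with 1 library left out. Cbx2 turned to -0.15 without both libraries numbered 1 and had no value with a mean of at least 1 CPM. Their causes were not tested. The replicate block called 0 genes, and Scmh1 was at 2.80 there. Same-numbered libraries did not deviate together (r across genes of -0.139, 0.0720 and -0.203 for numbers 1, 2 and 3). With 3 libraries per group and outlying libraries numbered 1, these values cannot settle whether the numbers pair libraries. With 10 to 24 reads, the depth of Cbx2 limits what can be said of it.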
